A study of Danio rerio with 12 samples.

Results

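The ligands, receptors and substrates of insulin and insulin-like growth factor (IGF) signalling were analysed in whole zebrafish larvae, with 10 genes chosen by name out of 32520 gene identifiers. The 10 genes were the ligand genes igf1, igf2a and igf2b, the receptor genes insra, insrb, igf1ra and igf1rb, and the substrate genes irs1, irs2a and irs2b. RNA sequencing had been performed on 6 elmo3-/- and 6 elmo3+/+ samples, each a pool of 30 larvae frozen at 120 hours post fertilization (hpf), to find out which transcripts change when Elmo3, an adaptor protein of the engulfment and cell motility family, is lost. The elmo3-/- line carries a frameshift deletion made with CRISPR/Cas9, and according to the study's methods the mutants were crossed into the reporter line Tg(fli1:EGFP), in which endothelial cells express a green fluorescent protein. The labels name no treatment in either genotype. Larvae of this age were kept with or without PTU, an inhibitor of pigmentation, and it is not given which applied to these pools. Estimated counts summed to between 16851426 and 17188263 per elmo3-/- sample and between 16927275 and 17577126 per elmo3+/+ sample.

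Insulin and IGFs bind related receptor tyrosine kinases on the cell surface. An occupied receptor phosphorylates insulin receptor substrates, docking proteins that recruit PI3 kinase and thereby activate Akt and mTORC1, and it also feeds the Ras-MAPK cascade. Insulin is known mainly for the control of glucose, IGFs for growth before and after hatching, and most of these genes exist in duplicate in zebrafish because the teleost genome was duplicated.

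The gene table used here gives 4 of the 10 genes a symbol of their own, namely IGF1 (ENSDARG00000094132), igf2a (ENSDARG00000018643), igf2b (ENSDARG00000033307) and IRS1 (ENSDARG00000054087). The paralogues of the insulin receptor share the symbol INSR (ENSDARG00000011948 and ENSDARG00000071524), those of the IGF1 receptor share IGF1R (ENSDARG00000027423 and ENSDARG00000034434), and those of the second substrate share IRS2 (ENSDARG00000037099 and ENSDARG00000075282). Which identifier of a pair is the a copy and which the b copy was not settled, and these 6 genes are therefore named with their identifiers. In the RefSeq gene table of the assembly GRCz12tu, igf2b was the only one of the 10 genes on the chromosome that holds elmo3, although igf2a and igf2b are listed there as synonyms of each other.

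All 10 genes were transcribed in every sample, and their levels spanned about one order of magnitude. Levels are given as TPM, the number of transcripts of a gene per fixed total of transcripts, which takes the transcript length into account and can be set side by side between genes. INSR ENSDARG00000011948 was the most abundant, with a mean level of 11.7 ± 0.905 TPM over the 12 samples (SD). It was followed by IRS2 ENSDARG00000075282 at 10.2 ± 1.23 TPM, igf2a at 8.70 ± 1.59 TPM and igf2b at 8.13 ± 1.82 TPM. The middle of the order was held by IRS2 ENSDARG00000037099 at 5.86 ± 2.01 TPM and INSR ENSDARG00000071524 at 4.41 ± 0.60 TPM. Both IGF1 receptors and IRS1 lay lower, at 3.56 ± 0.478 TPM for IGF1R ENSDARG00000027423, 3.34 ± 0.415 TPM for IGF1R ENSDARG00000034434 and 3.28 ± 0.350 TPM for IRS1, and IGF1 was the least abundant at 1.44 ± 0.364 TPM. Not all neighbours in this order could be told apart. INSR ENSDARG00000071524 was above IGF1R ENSDARG00000027423 in level, and IRS1 above IGF1, in 12 of 12 samples, and INSR ENSDARG00000011948 was above IRS2 ENSDARG00000075282 in 11 of 12. The other neighbours kept their order in only 7 to 9 of the 12 samples.

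**Figure D1:**
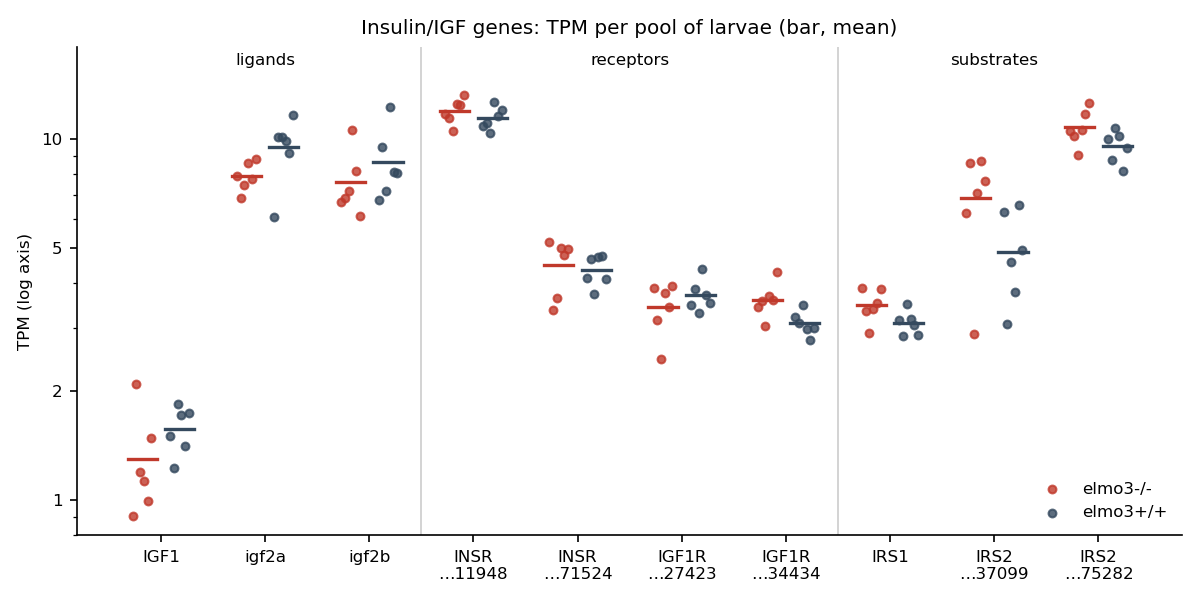
Level of each of the 10 genes in every pool of larvae, in TPM on a log axis, with elmo3-/- pools (red) left of elmo3+/+ pools (blue) and a bar at each mean (n = 6 each). The genotypes overlap for every gene, and IRS2 ENSDARG00000037099 has a single low elmo3-/- pool at 2.88 TPM.

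Whether the pathway's entry points differ between the genotypes was tested with the quasi-likelihood test of edgeR, fitted across all 21127 genes that passed a filter on low counts. The 10 genes all passed this filter. After Benjamini-Hochberg adjustment none of the 10 was past an adjusted p of 0.05, a threshold that 21 of all genes tested passed (0.0994%, with 0.0568% higher and 0.0426% lower in elmo3-/-). DESeq2 and limma likewise called 0 of the 10. The genotypes overlapped in CPM, the count of a gene scaled to the TMM-adjusted total count of its sample and not divided by length, for each of the 10 genes, while over all genes tested 0.431% did not overlap. For some genes below, all 6 elmo3-/- pools lay on the same side of the elmo3+/+ median in CPM. How many of all genes tested did so was not counted, so these statements only describe the pools. They also depend on the TMM adjustment. Scaled to the unadjusted total count, elmo3-/- replicate 3 lay below the elmo3+/+ median for INSR ENSDARG00000011948, IRS1 and IRS2 ENSDARG00000075282. At an unadjusted p under 0.05 there were 5 of the 10, all of them receptors or substrates that were higher in elmo3-/-, and over all genes tested 9.52% were at that level, 4.58% higher and 4.95% lower. The 5 were INSR ENSDARG00000011948, IGF1R ENSDARG00000034434, IRS1 and both IRS2 genes. The count of 5 fell to 3 when elmo3-/- replicate 2, elmo3-/- replicate 6 or elmo3+/+ replicate 2 was left out, and to 0 when limma was run on log2 TPM values in place of the counts. On log2(TPM + 1) the log2 fold changes were smaller by over 1.5 times for INSR ENSDARG00000011948 (0.06), INSR ENSDARG00000071524 (0.03), IGF1R ENSDARG00000034434 (0.17), IRS1 (0.12) and IRS2 ENSDARG00000075282 (0.16). With 0.1 added in place of 1 they were, in the same order, 0.07, 0.03, 0.21, 0.16 and 0.17. The value added thus changed IGF1R ENSDARG00000034434 and IRS1 more than both INSR genes. With scaling by the total count in place of TMM, edgeR gave 0.08, 0.06, 0.24, 0.18 and 0.19 in the same order. This scaling lowered the log2 fold change of each of the 10 genes. The median log2 fold change was 0.12 over the 10 genes and 0.00 over all genes tested, with 6 positive values among the 10 and 51.1% positive values among all genes tested. The replicates are pools of larvae, and nothing in the labels says that they came from separate clutches, so the p-values measure the spread between these pools. In whole larvae, fewer cells of a type and less RNA per cell cannot be told apart.

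**Figure D2:**
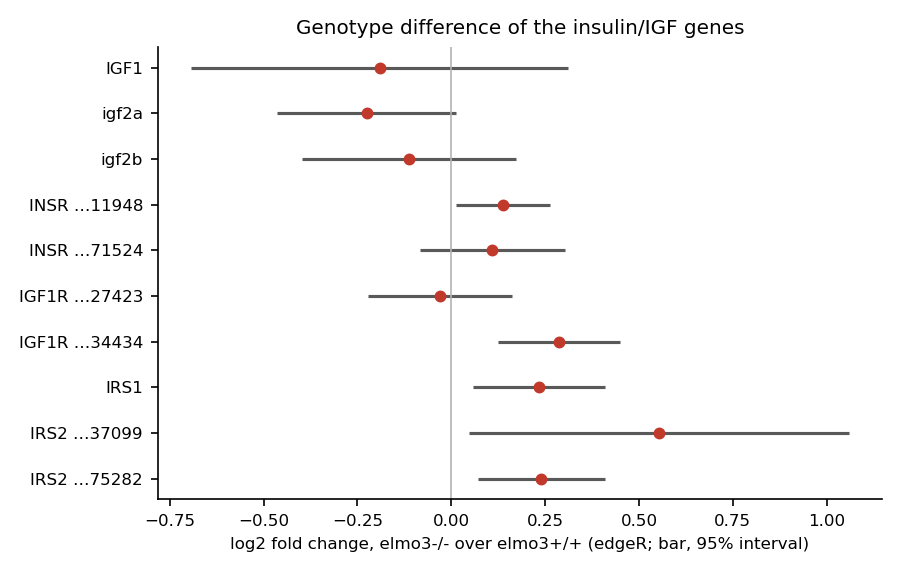
Log2 fold change of each of the 10 genes in elmo3-/- over elmo3+/+ (points) with its 95% confidence interval (bars), from edgeR. The points of the ligands lie left of 0 and the substrates right of 0, and no gene passed the adjusted threshold.

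The ligand genes had the lowest fold changes of the 10. The gene igf2a encodes an IGF2, a growth factor known for growth before birth in mammals, and its level was 6.89 at the lowest, 7.82 at the median and 8.82 TPM at the highest in elmo3-/-, against 6.08, 9.99 and 11.6 TPM in elmo3+/+. A single elmo3+/+ pool, replicate 1, lay below all elmo3-/- pools, whereas the other elmo3+/+ pools lay at 9.17 TPM or more and thus above each of the elmo3-/- pools. The CPM of igf2a was below the elmo3+/+ median in all 6 elmo3-/- pools. The log2 fold change of igf2a was -0.23 with a standard error of 0.112 and a 95% confidence interval from -0.46 to 0.01 (edgeR adjusted p = 0.544), and it was -0.05 with 1 surrogate variable.

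The length by which the estimated counts of igf2a had been divided was not the same in every sample. It was derived for each gene as the count over the TPM, relative to the other samples. For igf2a the highest such value was 1.49 times the lowest, with the lowest in elmo3+/+ replicate 3 and the highest in elmo3-/- replicate 5, whereas the same ratio was 1.003 to 1.04 for the other 9 genes and 1.01 at the median of all genes tested. On the CPM scale the level of igf2a was 8.39 to 11.4 CPM in elmo3-/- and 9.14 to 13.3 CPM in elmo3+/+, with both elmo3+/+ replicates 1 and 3 inside the elmo3-/- range. The part of this length in the TPM difference was not tested.

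Its paralogue igf2b showed a similar level and the widest spread among the abundant ligand genes. Its level was 6.14 at the lowest, 7.02 at the median and 10.6 TPM at the highest in elmo3-/-, against 6.77, 8.09 and 12.3 TPM in elmo3+/+. The highest pool of each genotype, replicate 4 in both, stood above the rest, and the genotypes overlapped over most of their range. The fitted difference of -0.11 on the log2 scale was smaller than its standard error of 0.134 (edgeR adjusted p = 0.805). It rested on few pools, at -0.0048 without elmo3+/+ replicate 4, -0.04 without elmo3-/- replicate 6 and -0.20 without elmo3-/- replicate 4.

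IGF1, the growth hormone-dependent ligand of later growth, was rare in these larvae. Its transcripts gave 14 to 33 counts per elmo3-/- pool and 19 to 28 counts per elmo3+/+ pool, with levels of 0.901, 1.16 and 2.10 TPM at the lowest, median and highest in elmo3-/- and 1.23, 1.61 and 1.84 TPM in elmo3+/+. Only elmo3-/- replicate 2, the highest of all 12, exceeded the elmo3+/+ median in CPM. At this depth counting error alone amounts to about 21.3% of a value, beside a coefficient of variation of 33.8% among elmo3-/- and 14.8% among elmo3+/+ pools. The log2 fold change of IGF1 was -0.19 with a confidence interval from -0.69 to 0.31 (edgeR adjusted p = 0.813), so a change of the size fitted for igf2a was not detectable for this gene. The value was -0.42 without elmo3-/- replicate 2, -0.11 without elmo3-/- replicate 1, -0.12 without elmo3-/- replicate 5 and -0.44 with 1 surrogate variable.

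Among the receptors, both insulin receptor paralogues were slightly higher in elmo3-/- in the fit to counts, without passing the threshold. INSR ENSDARG00000011948 was the steadiest of the 10 genes. Its level was 10.5 at the lowest, 12.1 at the median and 13.3 TPM at the highest in elmo3-/-, against 10.4, 11.3 and 12.7 TPM in elmo3+/+. These ranges almost coincide in TPM, yet in CPM all 6 elmo3-/- pools were above the elmo3+/+ median. The log2 fold change was 0.14 ± 0.059 (SE, edgeR adjusted p = 0.504). INSR ENSDARG00000071524 ranged over 3.37 to 5.18 TPM in elmo3-/- and 3.73 to 4.75 TPM in elmo3+/+, where 2 elmo3-/- pools, replicates 2 and 3, lay below all others and the rest at the upper end. Its log2 fold change was 0.11 ± 0.090 (SE, edgeR adjusted p = 0.700), and it was 0.05 without elmo3-/- replicate 1 and 0.07 without elmo3+/+ replicate 3.

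The IGF1 receptor paralogues, which encode the main receptors of both IGF ligands, had unlike fold changes. IGF1R ENSDARG00000034434 had the smallest p of the 10 genes. Its level was 3.04 at the lowest, 3.57 at the median and 4.30 TPM at the highest in elmo3-/-, against 2.77, 3.04 and 3.47 TPM in elmo3+/+. The highest elmo3+/+ pools were replicates 3 and 1, and the lowest elmo3-/- pool, replicate 3, fell within the elmo3+/+ range. In CPM the genotypes overlapped only narrowly, with 34.7 to 42.9 in elmo3-/- and 28.8 to 36 in elmo3+/+, and all 6 elmo3-/- pools were above the elmo3+/+ median. The log2 fold change was 0.29 ± 0.077 with a 95% confidence interval from 0.12 to 0.45 (SE, edgeR adjusted p = 0.442). Across the 21 alternative settings and left-out libraries it stayed positive, from 0.17 to 0.33, with adjusted p from 0.153 to 0.852.

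IGF1R ENSDARG00000027423, by contrast, had a fold change close to 0. It ranged over 2.45 to 3.91 TPM in elmo3-/- and 3.3 to 4.38 TPM in elmo3+/+, with the elmo3-/- pools of replicates 2 and 3 at the low end. Its log2 fold change was -0.03 ± 0.090 with an interval from -0.22 to 0.16 (SE, edgeR adjusted p = 0.933), and without single pools it ran from -0.08 without elmo3-/- replicate 1 to 0.04, with the sign changed, without elmo3-/- replicate 3.

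The 3 substrate genes all had positive fold changes, and each had an unadjusted p under 0.05. IRS1, the docking protein known from muscle and fat in mammals, was measured at 2.89, 3.45 and 3.86 TPM at the lowest, median and highest in elmo3-/-, against 2.85, 3.10 and 3.49 TPM in elmo3+/+. In CPM it ranged over 22 to 28.2 in elmo3-/- and 18.7 to 24.0 in elmo3+/+, and each of the 6 elmo3-/- pools was above the elmo3+/+ median. Its log2 fold change was 0.23 ± 0.082 (SE, edgeR adjusted p = 0.495).

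IRS2 ENSDARG00000075282 was the most abundant substrate gene. IRS2 proteins are known as the main substrates in mammalian liver and beta cells. The level of this paralogue was 9.04 at the lowest, 10.6 at the median and 12.6 TPM at the highest in elmo3-/-, against 8.17, 9.74 and 10.8 TPM in elmo3+/+. Here, too, the genotypes overlapped while every elmo3-/- pool exceeded the elmo3+/+ median in CPM. The difference amounted to 0.24 ± 0.080 on the log2 scale (SE, edgeR adjusted p = 0.489).

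IRS2 ENSDARG00000037099 combined the highest fold change of the 10 genes with the widest fold range between pools of a genotype. Its level was 2.88 at the lowest, 7.38 at the median and 8.70 TPM at the highest in elmo3-/-, against 3.08, 4.75 and 6.56 TPM in elmo3+/+. The lowest of all 12 pools was elmo3-/- replicate 3, and the other elmo3-/- pools lay at 6.23 TPM or more, above 4 of the 6 elmo3+/+ pools. The pools of one genotype differed up to 3.02-fold in elmo3-/- and 2.13-fold in elmo3+/+, and the coefficient of variation of 31.5% in elmo3-/- and 28.1% in elmo3+/+ compares with a counting error of 5.38%. The log2 fold change was 0.55 ± 0.238 with an interval from 0.05 to 1.06 (SE, edgeR adjusted p = 0.504).

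The balance between paralogues was compared next, as the share of one copy in the summed TPM of its pair and as the log2 ratio of both copies in each sample. The insulin receptor pair was uneven, and its balance did not differ between the genotypes beyond the error. INSR ENSDARG00000011948 made up 72.9 ± 2.66% of the pair in elmo3-/- against 72.5 ± 1.57% in elmo3+/+ (SD of 6 pools each) and was the more abundant copy in 12 of 12 samples. The log2 ratios differed by 0.04 ± 0.093 (SE, two-sided exact permutation test, p = 0.727, adjusted over the 4 pairs 0.727). The IRS2 pair was uneven in the other direction, with IRS2 ENSDARG00000037099 contributing 37.9 ± 7.42% in elmo3-/- and 33.4 ± 7.21% in elmo3+/+ and being the less abundant copy in every sample. Its log2 ratios differed by 0.29 ± 0.275 (SE, exact permutation p = 0.316, adjusted 0.632), and by 0.47 without elmo3-/- replicate 3 (exact permutation adjusted p = 0.152) and 0.19 without elmo3+/+ replicate 2 (adjusted p = 0.952). The igf2 pair was close to even, with igf2a at 51.3 ± 4.84% in elmo3-/- and 52.3 ± 5.86% in elmo3+/+ and above igf2b in 4 of 6 samples of each genotype. The log2 ratios of igf2a over igf2b differed by -0.06 ± 0.181 (SE, exact permutation p = 0.727, adjusted 0.727).

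The IGF1 receptor pair was the only one whose balance had an unadjusted p under 0.05. IGF1R ENSDARG00000027423 made up 48.6 ± 2.87% of the pair in elmo3-/- (range 44.7 to 53.0%) and 54.5 ± 3.8% in elmo3+/+ (range 48.7 to 59.4%), and it was the more abundant copy in 2 of 6 elmo3-/- and 5 of 6 elmo3+/+ pools. The mean log2 ratio was -0.08 ± 0.17 in elmo3-/- and 0.26 ± 0.22 in elmo3+/+, a difference of -0.34 ± 0.113 (SE, two-sided exact permutation test, p = 0.0173, where 0.00216 is the smallest p possible with 6 pools against 6). Adjusted over the 4 pairs this p was 0.0693 and did not pass 0.05. It did so only without elmo3+/+ replicate 3 (difference -0.41, exact permutation adjusted p = 0.0260) and without elmo3-/- replicate 1 (-0.39, adjusted p = 0.0433), both exclusions added after seeing the data. Without any other single pool the exact permutation adjusted p was 0.0779 to 0.139, and with the ratio of counts it was 0.0779. The differences without single pools ranged from -0.41 to -0.28. The summed level of both copies was 7.02 ± 0.904 TPM in elmo3-/- and 6.79 ± 0.332 TPM in elmo3+/+, which overlapped.

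**Figure D3:**
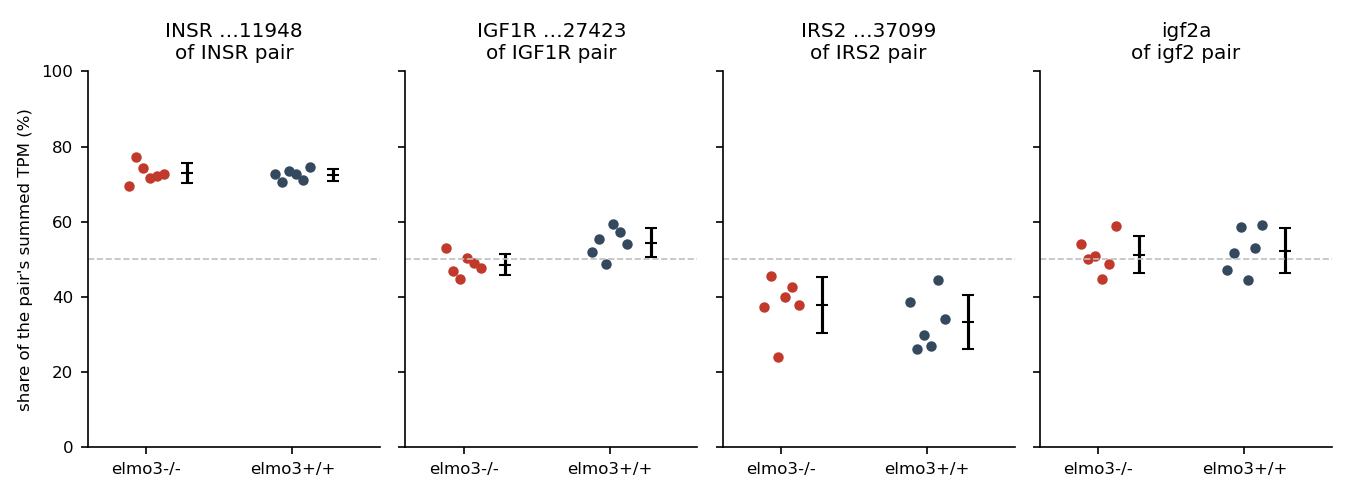
Share of the first-named copy in the summed TPM of each paralogue pair (percent), per pool, in elmo3-/- (red, left) and elmo3+/+ (blue, right), with the mean and SD in black and equal shares at the dashed line. The shares of the insulin receptor pair coincide near 73%, whereas IGF1R ENSDARG00000027423 lies mostly below the line in elmo3-/- and above it in elmo3+/+.

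Within elmo3+/+ alone, INSR ENSDARG00000011948 was 2.64 times as abundant as its paralogue and IRS2 ENSDARG00000037099 was 0.494 times as abundant as its own. Both had the smallest p that a two-sided exact sign-flip permutation test of 6 samples can give (p = 0.0312, adjusted over the 4 pairs 0.0625). The ratio of the IGF1 receptor paralogues was 1.2 (exact sign-flip permutation p = 0.0625, adjusted 0.0833) and that of igf2a over igf2b 1.1 (p = 0.344, adjusted 0.344, same exact test). These levels rest on the transcript lengths used by the authors' software, since the first copy was derived to be 0.497 times as long as the second in the IGF1 receptor pair and 0.466 times in the igf2 pair, and the ratio of the counts alone ran in the opposite direction in both. The summed levels of the remaining pairs were 16.5 ± 1.61 TPM in elmo3-/- and 15.8 ± 1.14 TPM in elmo3+/+ for the insulin receptors, 17.6 ± 3.14 TPM in elmo3-/- and 14.4 ± 1.51 TPM in elmo3+/+ for IRS2, and 15.5 ± 1.92 TPM in elmo3-/- and 18.2 ± 3.17 TPM in elmo3+/+ for igf2.

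Markers of several organs were read in the same samples, since a whole larva mixes them. A list of 9 hepatocyte genes, none of them at 0 in any sample, summed to 662 to 2722 TPM in elmo3-/- (median 1521) and 1072 to 4987 TPM in elmo3+/+ (median 3613). The 12 genes of the acinar pancreas summed to 435 to 1363 TPM in elmo3-/- (median 745) and 461 to 2001 TPM in elmo3+/+ (median 1481). Both lists were thus wide ranging within each genotype, and their medians were higher in elmo3+/+. The 7 islet genes summed to 171 to 219 TPM in elmo3-/- (median 197) and 191 to 235 TPM in elmo3+/+ (median 215). The 9 neuronal genes summed to 1464 to 1998 TPM in elmo3-/- (median 1612) and 1504 to 1869 TPM in elmo3+/+ (median 1611). The 9 skeletal muscle genes summed to 35310 to 47324 TPM in elmo3-/- (median 42549) and 40738 to 50980 TPM in elmo3+/+ (median 46324). The ranges of each of these lists overlapped, with lower medians in elmo3-/- for islet and skeletal muscle. Counts from the mitochondrial genome made up 7.28 to 10.3% of the total in elmo3-/- and 6.59 to 8.99% in elmo3+/+.

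The levels of several of the 10 genes followed the hepatocyte list across the 12 samples, a relation that was examined after the data had been seen and computed for all 10 genes. It was not computed for the other marker lists. The acinar list, like the hepatocyte list, was lowest in replicates 1 and 3 of elmo3+/+ (515 and 461 TPM, the others 1111 to 2001). In elmo3-/- both lists were lowest in replicates 1 and 2 and highest in replicate 5. A relation to hepatocytes cannot be told apart from one to what these lists share. The permutations ran over all 12 samples regardless of genotype, so their p-values also take in any difference between the genotypes. No p was computed within a genotype. All these correlations used CPM scaled with TMM. They were not computed with the unadjusted total count, so how far they depend on the TMM adjustment was not tested. For igf2a the log2 CPM and the log2 summed hepatocyte level correlated with r = 0.925 (permutation p = 4.0e-05, adjusted over 10 relations 0.00040) and Spearman's rho = 0.825 (permutation adjusted p = 0.0105). The correlation of igf2a held within both genotypes, with r = 0.776 in elmo3-/- and 0.972 in elmo3+/+, and was 0.885 without elmo3-/- replicate 2 and elmo3+/+ replicate 5, the 2 samples farthest from the median hepatocyte level. The gene igf2b had r = 0.543 (permutation p = 0.0671, adjusted 0.134), rho = 0.727 (permutation adjusted p = 0.0197) and r = 0.709 without these 2 samples. Within the genotypes its r was 0.302 in elmo3-/- and 0.689 in elmo3+/+.

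A negative relation in TMM-scaled CPM was found for 3 of the genes with positive fold changes. IGF1R ENSDARG00000034434 had r = -0.823 (permutation p = 0.00118, adjusted 0.00590) and rho = -0.790, with r = -0.545 within elmo3-/-, -0.919 within elmo3+/+ and -0.698 without the 2 farthest samples. IRS1 had r = -0.787 (permutation p = 0.00274, adjusted 0.00913) and rho = -0.804, with r = -0.653 within elmo3-/-, -0.704 within elmo3+/+ and -0.767 without the 2 farthest samples. For IRS2 ENSDARG00000075282 the values were r = -0.746 (permutation p = 0.00605, adjusted 0.0151) and rho = -0.776, with -0.597 without the 2 farthest samples, -0.249 within elmo3-/- and -0.828 within elmo3+/+. The Spearman correlations had a permutation adjusted p of 0.0105 for IGF1R ENSDARG00000034434, 0.0105 for IRS1 and 0.0114 for IRS2 ENSDARG00000075282. The other 5 genes had r between -0.470 and 0.132 and adjusted permutation p of 0.202 or more. The part of the hepatocyte list in the genotype differences was not tested.

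**Figure D4:**
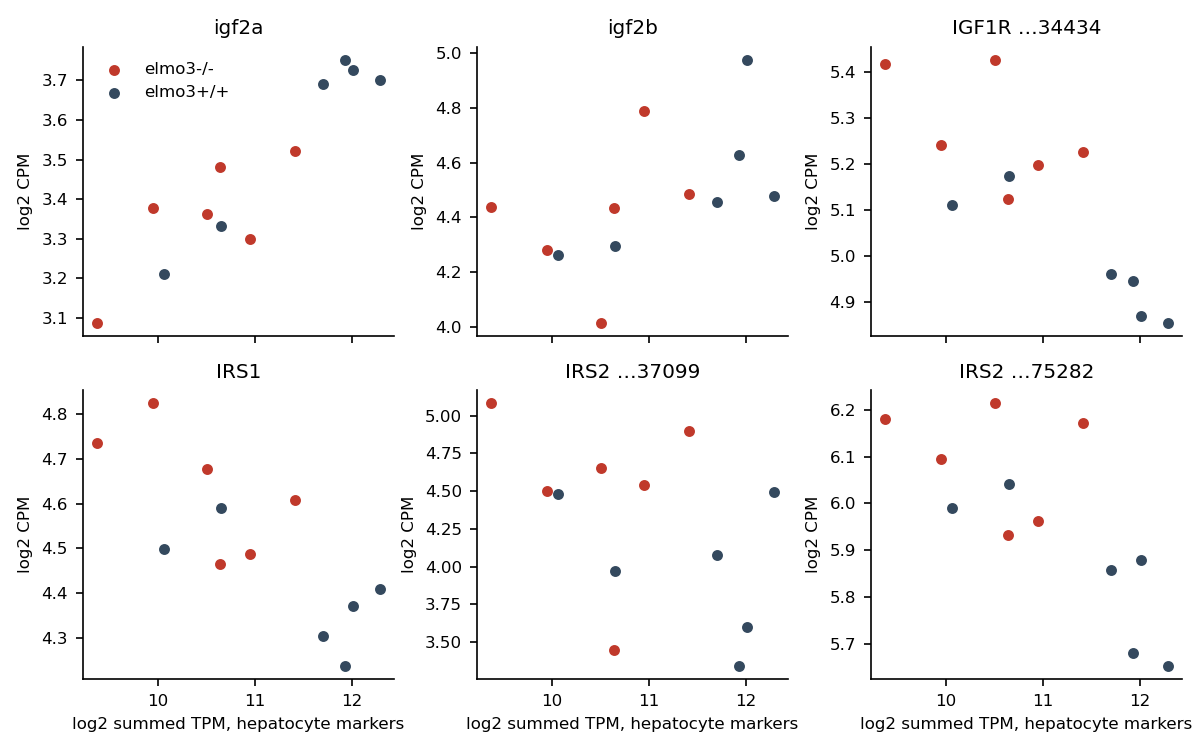
Log2 CPM of 6 of the 10 genes against the log2 summed TPM of 9 hepatocyte markers, 1 point per pool, elmo3-/- in red and elmo3+/+ in blue. The level of igf2a climbs with the markers (r = 0.925), IGF1R ENSDARG00000034434 and IRS1 descend (r = -0.823 and -0.787), and 2 elmo3+/+ pools lie at low marker levels among the elmo3-/- pools.

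The rest of the pathway was read from lists of genes by role, of which 117 were matched to the files and 111 passed the filter. None of the 111 was called by edgeR at an adjusted p under 0.05, nor by DESeq2 or limma. At an unadjusted p under 0.05 there were 9 higher and 4 lower in elmo3-/-, beside 4.58% higher and 4.95% lower among all genes tested, and the median log2 fold change of the 111 was 0.01. The targeted gene elmo3 itself was at 1.95 ± 0.546 TPM in elmo3-/- against 1.995 ± 0.556 TPM in elmo3+/+ (SD), and its fitted difference was 0.03 ± 0.191 on the log2 scale (SE, edgeR adjusted p = 0.967), so that its RNA level did not tell the genotypes apart.

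Of the other ligand genes only ins, the insulin gene of the beta cells, passed the filter, while insb and igf3 had at most 3 and 4 counts in any sample. The level of ins was 17 ± 7.62 TPM in elmo3-/- (range 7.61 to 29.4) and 29.8 ± 15.1 TPM in elmo3+/+ (range 12.8 to 57.1), and its log2 fold change was -0.73 ± 0.312 (SE, edgeR adjusted p = 0.504). The ranges of ins overlapped widely. Over all genes tested 4.58% were higher and 4.95% lower at an unadjusted p under 0.05. The proteins that bind and release IGFs had 17 tested genes with 0 higher and 2 lower at that level and a median of -0.07. Those were the paralogues of IGFBP2, a binding protein of the circulation, with 14 ± 3.08 TPM in elmo3-/- and 21.0 ± 5.70 TPM in elmo3+/+ for IGFBP2 ENSDARG00000052470 (log2 fold change -0.51, edgeR adjusted p = 0.489). The rarer IGFBP2 ENSDARG00000031422 likewise had a negative value, -0.65 on the log2 scale (edgeR adjusted p = 0.512).

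Below the receptors, the smallest p belonged to a gene of the PI3K-Akt branch. In the PI3K-Akt branch 2 of 20 tested genes were higher and 0 lower at an unadjusted p under 0.05, with a median of -0.01. Among all genes tested 4.58% were higher and 4.95% lower at that level. PDPK1 (ENSDARG00000062304), the kinase that phosphorylates Akt, had 3.59 ± 0.263 TPM in elmo3-/- and 3.18 ± 0.427 TPM in elmo3+/+, and its log2 fold change of 0.33 ± 0.080 carried the smallest adjusted p of all pathway genes (SE, edgeR adjusted p = 0.349). The other PDPK1 identifier, ENSDARG00000018285, was at -0.0049 on the log2 scale (edgeR adjusted p = 0.981). The regulatory subunit gene pik3r3a had a fold change of 0.25 on the same scale (edgeR adjusted p = 0.499). In the mTORC1 list 3 of 15 genes were higher and 0 lower at the unadjusted level, 13 of 15 fold changes were positive, beside 51.1% of all genes tested, and the median was 0.08. The first of these by p was TSC1 ENSDARG00000026048, at 0.23 on the log2 scale (edgeR adjusted p = 0.489). TSC1 restrains mTORC1 together with its partner TSC2. The other TSC1 identifier, ENSDARG00000057918, was at 0.13 (edgeR adjusted p = 0.528). The next by p was RICTOR ENSDARG00000100867, a subunit of the related complex mTORC2, at 0.21 (edgeR adjusted p = 0.499). The other RICTOR identifier, ENSDARG00000002020, was at 0.04 (edgeR adjusted p = 0.851).

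The remaining lists had medians between -0.02 and 0.07. Their counts at an unadjusted p under 0.05 stand beside 4.58% higher and 4.95% lower among all genes tested. In the Ras-MAPK branch 1 of 14 genes was higher at the unadjusted level, SOS1, an exchange factor that activates Ras (log2 fold change 0.24, edgeR adjusted p = 0.489), and the fold change of SOS2 was 0.16. The other substrates and adaptors had 1 of 11 genes higher, the adaptor gene sh2b1 at 0.15, and 1 lower, its relative SH2B2 at -0.17. Among the negative regulators 1 of 18 genes was higher, PHLPP1, a phosphatase that acts on Akt (0.29, edgeR adjusted p = 0.504). Of the 7 FoxO genes, whose products Akt keeps out of the nucleus, 6 had positive fold changes, beside 51.1% of all genes tested, with a median of 0.07. FOXO4 was at 0.16 (edgeR adjusted p = 0.499), although its mean TPM of 24.8 in elmo3-/- was not above the 26.1 in elmo3+/+. The 8 tested genes of the growth hormone axis had none at the unadjusted level, with -0.25 for the receptor gene ghra and 0.11 for its paralogue ghrb.

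**Figure D5:**
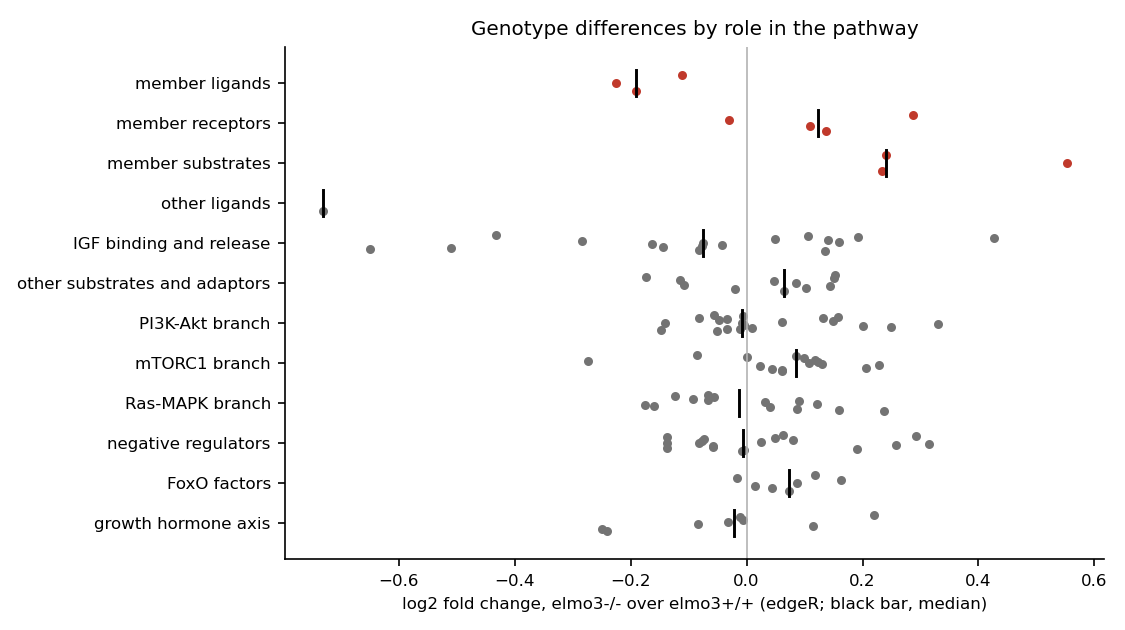
Log2 fold change in elmo3-/- over elmo3+/+ (edgeR) of each tested gene, grouped by role, with the 10 genes in red at the top, 111 other pathway genes in grey and a black bar at each list's median. The 3 ligands lie below 0 and the 3 substrates above 0, and each list of other genes has points on both sides of 0 except the single ligand ins.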

How the data were processed

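Total RNA had been isolated from pools of 30 larvae with a column kit and sequenced on a BGISEQ-500. The submitters' processing notes name Trim Galore 0.6.4, kallisto 0.4.6 and the build GRCz11. The authors deposited estimated counts per gene and TPM values for each sample. The estimated counts, of which 63.0% were exactly whole as written, with no tolerance, were rounded before testing. Symbols were available for 29201 identifiers (89.8%). Kallisto divides reads shared by similar transcripts, so counts of paralogues are estimates.

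Samples were grouped by their titles. Genes were tested with edgeR 4.0.16 in R 4.3.3 (TMM scaling, filterByExpr, genotype as the only term) with Benjamini-Hochberg adjustment over 21127 genes and a threshold of 0.05. Positive values mean higher in elmo3-/-. Log2 ratios of paralogues (first identifier over second, igf2a over igf2b) were compared by two-sided exact permutation tests over 462 divisions or exact sign-flip tests, and correlations by 100000 permutations (scipy 1.17.1). A count of 3 corresponded to 0.171 to 0.178 CPM. This limit and the counting errors cover counting error only. The fit was tested on simulated data. No samples held identical values.

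The 10 genes and elmo3 were always named. Of the other lists, genes past the threshold were named, otherwise the 2 with the smallest p in each list. For PDPK1, TSC1 and RICTOR the other identifier of the symbol was added. A gene that this rule names is not reported here. The genes and lists were chosen with earlier results of these data known. Alternatives were DESeq2 1.42.0, scaling by the upper quartile or by the total count, a filter that kept every gene with a count or those with a mean of 10 or more, a term for the replicate number, 1 surrogate variable (sva 3.50.0), and limma 3.58.1 on log2(TPM + 1) and log2(TPM + 0.1). Leaving out elmo3+/+ replicate 1 was also planned, and leaving out each other library was added after seeing the data.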

Additional observations from a re-analysis of the deposited data

Results flagged for a closer look

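Of 38 sets of 6 pools examined for a pool far from the others, 1 stood out. The log2 TPM ratio of IRS2 ENSDARG00000037099 over IRS2 ENSDARG00000075282 was -1.65 in elmo3-/- replicate 3, whereas the other elmo3-/- pools lay between -0.75 and -0.25. The gap to the nearest pool was 0.642 of the whole range, beyond the limit of 0.625 for 6 samples, a limit that chance exceeds in about 1 of 20 sets. IRS2 ENSDARG00000037099 had 176 counts and 2.88 TPM in this pool, and IRS2 ENSDARG00000075282 had 9.04 TPM, the lowest of the elmo3-/- pools.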

How the results depend on the processing

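The number of the 10 genes called was 0 in all 21 alternatives, as was that of the other pathway genes. Over all genes 21 were called, 55 with DESeq2 and 17 to 23 with the other alternatives. At an unadjusted p under 0.05 there were 0 of the 10 genes with limma on log2(TPM + 1) or log2(TPM + 0.1), and 3 to 5 with single pools left out. With 1 surrogate variable the log2 fold changes of igf2b (0.078) and IGF1R ENSDARG00000027423 (0.022) changed sign, and that of igf2a was -0.05. Without single pools IGF1R ENSDARG00000027423 ranged from -0.076 to 0.038. The genotype differences in log2 ratio then ranged from -0.030 to 0.086 for INSR (negative without elmo3-/- replicate 2), from -0.41 to -0.28 for IGF1R, from 0.19 to 0.47 for IRS2 and from -0.15 to 0.016 for igf2 (positive without elmo3+/+ replicate 3 or 6 or elmo3-/- replicate 4). The log2 ratios within elmo3+/+ taken from counts rather than TPM were 1.54 for INSR and -1.87 for IRS2. They were -0.76 for IGF1R and -0.95 for igf2, with the sign reversed (exact sign-flip permutation test, adjusted p = 0.0312 in each case). The unadjusted p of INSR and IRS2 was the smallest possible with TPM as well. Their adjusted p passed the threshold only because the IGF1R and igf2 ratios, not divided by length, reached that smallest p too. The cause of the other changes was not tested. Same-numbered samples did not deviate together in every pair (correlations from -0.29 to 0.39, over 0.1 in 3 of 6 pairs), so the numbers were not taken to pair them. With the replicate number as a block 17 genes were called and 0 of the 10, 5 of the 10 had an unadjusted p under 0.05, and the IGF1R ratio differed by -0.34 (exact sign-flip permutation p = 0.0625, adjusted 0.250). The depth limits IGF1 most, at 14 to 33 counts per pool.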
